A study of Mus musculus with 3 samples.

Results

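Collagen genes were taken from the RNA-Seq counts of control and NUP153 knockdown mouse ES cells as every gene symbol that begins with Col, a number, the letter a and a number. This rule uses names alone and gave 44 genes of the 24421 counted. They were grouped by the kind of assembly that their chains form into 11 fibrillar collagens, 8 basement membrane collagens, 9 FACIT collagens and 16 other collagens. All members were coding genes in the GENCODE M21 annotation of the mouse genome (GRCm38) and were matched there by symbol.

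The cells were undifferentiated ES cells of the female EL 16.7 line, with an F2 129S1/CastEiJ background crossed to 129S1, and were kept in LIF on γ-irradiated fibroblasts from DR4 mouse embryos. The control library came from cells given a scramble shRNA, and the KD-1 and KD-2 libraries came from cells given shRNA-1 or shRNA-2 against NUP153, a nucleoporin of the nuclear basket. The labels give the genotype as wild type for control and as NUP153 knockdown for the others. The ES cells of every library, control included, were transduced with lentivirus and kept for 2 days in 2 μg/ml puromycin, an antibiotic to which DR4 feeders are resistant. The labels describe no step that removed the feeder fibroblasts before RNA was isolated, and the RNA was depleted of ribosomal RNA, not selected for poly(A) tails. There was 1 library per condition, so a difference between libraries has no replicate check and no p-value, and any other way in which the cultures differed cannot be told apart from the shRNA.

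Collagens are extracellular matrix proteins made of intertwined α chains, and each chain has its own gene. Fibrillar collagens pack into the banded fibers of connective tissue, type IV collagen forms the mesh of basement membranes, and FACIT collagens attach to the surface of fibrils. Fibroblasts are a main source of types I, III, V, VI and XII, while type IV is made by many epithelial, endothelial and embryonic cells, and types II, IX, X and XI are best known from cartilage.

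Reads on genes numbered 72344726 in control against 85258834 with KD-1 and 69839336 with KD-2. Nup153 itself was checked first, and it had 27870 reads in control against 16451 with KD-1 and 11126 with KD-2, a log2 ratio of -0.99 with KD-1 and -1.43 with KD-2. The ES cell label was checked with 10 marker genes, each of which had at least 127 reads in every library. Pou5f1, a pluripotency factor, was at 218, 235 and 210 RPKM (reads per kilobase of exon, scaled to 1000000 reads on genes) in control, KD-1 and KD-2, Nanog was at 275, 323 and 251 RPKM, and Zfp42 was at 608, 623 and 419 RPKM. These levels exceed that of every collagen gene in the same library. Fold changes below are ratios of reads scaled by the upper quartile of each library, with 0.5 reads added, on the log2 scale. The intervals are exact 95% binomial intervals of the read ratio and cover counting error only. Of 16670 genes that averaged 10 reads or more, 43 were collagen genes, and only Col19a1, a FACIT collagen with 7, 4 and 10 reads, was below that limit.

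Collagen genes together had 2520 reads in each 1000000 reads on genes (RPM) in control against 1567 with KD-1 and 5310 with KD-2. Their share was thus 1.61-fold lower in KD-1 than in control, 2.11-fold higher in KD-2 than in control and 3.39-fold higher in KD-2 than in KD-1. The counting intervals were narrow, at 2508 to 2531 RPM in control, 1558 to 1575 in KD-1 and 5293 to 5327 in KD-2. Col3a1 alone held 30.0% of the collagen reads in control against 19.1% with KD-1 and 30.8% with KD-2. Without Col3a1 the ratio was 0.718 for KD-1 over control, 2.08 for KD-2 over control and 2.90 for KD-2 over KD-1, so the order of the libraries did not rest on this gene.

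A gene past 1.5-fold in either direction is counted here as higher or lower in that library. In KD-1 against control 16 of 43 collagen genes were lower, where 5.62% of all tested genes were, and 5 were higher, where 8.63% of all tested genes were. In KD-2 against control 31 of 43 were higher, where 17.1% of all tested genes were, and 0 were lower, where 10.2% of all tested genes were. The 16 genes below control in KD-1 were all above it in KD-2 by this count, a combination found in 2.09% of all tested genes. These were the fibrillar Col1a2, Col2a1, Col3a1, Col5a2, Col11a1, Col11a2 and Col24a1, the basement membrane Col4a5 and Col4a6, the FACIT Col9a1, Col9a3 and Col12a1, and Col6a1, Col8a1, Col10a1 and Col28a1 of the other class. Higher in both knockdowns were 2 of 43, Col4a1 and Col9a2, where 3.64% of all tested genes were, so this count was near that of genes at large. Past 1.5-fold in neither were 9 collagen genes, where 65.5% of all tested genes were. Both comparisons use the same control library, so a low or high value there enters each of them.

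The comparison of KD-2 with KD-1 does not use the control library. Past 1.5-fold in either direction were 30.1% of all tested genes, as 14.2% were in KD-1 and 27.3% in KD-2 against control. Of the 43 collagen genes 31 were higher in KD-2 than in KD-1, where 16.1% of all tested genes were, and 2 were lower, Col13a1 and Col26a1, where 13.9% of all tested genes were. The median log2 ratio over the collagen genes was -0.37 in KD-1, 0.80 in KD-2 and 1.07 between KD-2 and KD-1, beside 0.02, -0.02 and -0.12 over all tested genes. By scaled reads 28 of 43 collagen genes were lowest in KD-1 and highest in KD-2, an order that 19.9% of all tested genes had. The order with KD-2 lowest and control highest was found in 21.6% of all tested genes and in 0 collagen genes. A likelihood ratio test of edgeR with an assumed dispersion of 0.04 in place of replicates, and the 1.5-fold limit, called 0 collagen genes lower and 0 higher in KD-1, where 0.168% and 0.306% of all tested genes were called. It called 1 higher in KD-2 than in control, where 0.348% were, and 21 higher in KD-2 than in KD-1, where 3.67% were. These calls rest on the assumed dispersion, since at 0.01 the last count was 28, where 13.9% of all tested genes were called, and at 0.16 it was 0, where 0% were.

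**Figure D1:**
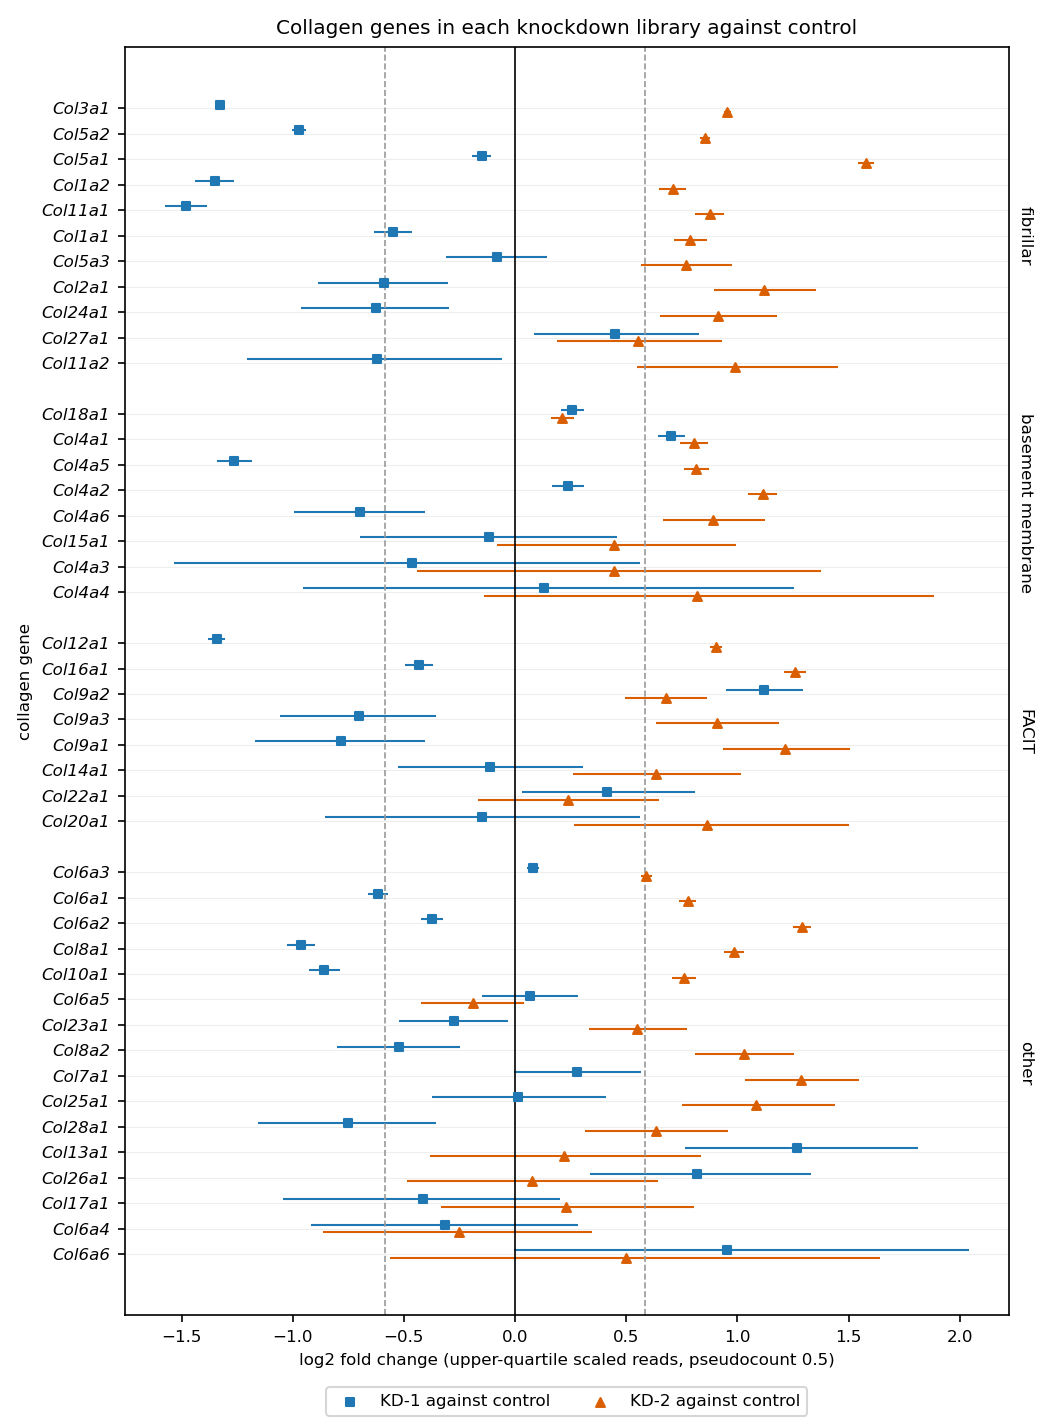
The log2 ratio of each of the 43 tested collagen genes is plotted for KD-1 (squares) and KD-2 (triangles) against control, by class and in order of mean reads, with lines for the 95% counting intervals and dashed lines at 1.5-fold. Most genes have their KD-1 point left of 0 and their KD-2 point right of it, while Col4a1 and Col9a2 have both points past 1.5-fold on the right.

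Both knockdown libraries were also tested together against the control with edgeR's quasi-likelihood test. Its spread comes from the difference of KD-1 and KD-2, with 1 residual degree of freedom, and is moderated over all tested genes. A gene on opposite sides of control in KD-1 and KD-2 can hardly be called in it, so a count of 0 says little about such genes. In that test 0 of 43 collagen genes were called at an adjusted p under 0.05, where 0.006% of all tested genes, 1 gene, were called. At an unadjusted p under 0.05 there was 1 collagen gene, where 1.27% of all tested genes passed. This was Col5a1, with a log2 ratio of 0.96 and a p of 0.0446 in edgeR's quasi-likelihood test, a ratio that joins -0.15 with KD-1 and 1.58 with KD-2. With DESeq2's size factors the same edgeR test had 0 collagen genes at an unadjusted p under 0.05, the smallest being 0.0553 for Col4a1. The Wald test of DESeq2 called 0 collagen genes, where 0.012% of all tested genes were called, and had 0 with an unadjusted p under 0.05, where 0.516% of all tested genes passed.

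The fibrillar collagens are the chains of the banded fibers, and they held 52.1% of the collagen reads in control against 40.0% with KD-1 and 54.7% with KD-2. Of 11 members 7 were lower in KD-1, where 5.62% of all tested genes were, and 10 were higher in KD-2, where 17.1% were. The median log2 ratio of the members was -0.62 with KD-1 and 0.87 with KD-2. By scaled reads 10 of 11 were lowest in KD-1 and highest in KD-2, as were 19.9% of all tested genes. The exception was Col27a1, a collagen of developing cartilage, with 101 reads in control against 162 with KD-1 and 160 with KD-2, log2 ratios of 0.45 and 0.55 that did not reach 1.5-fold.

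Col3a1, the chain of type III collagen of skin and vessels, lies at chr1:45311538-45349706 and had the highest RPKM of the collagen genes in every library, at 76.9, 30.5 and 166. It had 54628 reads in control against 25523 with KD-1 and 114064 with KD-2, and in KD-1 the longer Col6a3 had slightly more reads, 25574. KD-1 was thus the lowest and KD-2 the highest library, with a log2 ratio of -1.33 (interval -1.35 to -1.30) in KD-1, 0.96 (0.94 to 0.97) in KD-2 and 2.28 (2.26 to 2.30) between KD-2 and KD-1. Its neighbour Col5a2, a chain of type V collagen that starts and regulates fibrils, lies 24614 bases away on the opposite strand. Col5a2 had 22145, 13222 and 43088 reads in control, KD-1 and KD-2, with a log2 ratio of -0.97 with KD-1 and 0.85 with KD-2.

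Col5a1, the partner chain of Col5a2 on chromosome 2, had 8563 reads in control against 9050 with KD-1 and 27541 with KD-2. Control and KD-1 were close, at 13.9 and 12.5 RPKM, and KD-2 stood apart at 46.4 RPKM. Its log2 ratio of 1.58 (1.54 to 1.61) in KD-2 was the largest of the collagen genes in that library, and 99.0% of all tested genes had a smaller one, while in KD-1 it was -0.15 (-0.19 to -0.11). Col5a3, a further type V chain, had 307, 340 and 564 reads and showed the same arrangement, with log2 ratios of -0.08 with KD-1 and 0.77 with KD-2.

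Type I collagen, the main collagen of bone and tendon, is built from the products of Col1a1 and Col1a2. Col1a1 had 2391 reads in control against 1915 with KD-1 and 4450 with KD-2, and Col1a2 had 3355, 1542 and 5908. Both were lowest in KD-1 and highest in KD-2, with a log2 ratio in KD-1 of -0.55 (-0.64 to -0.46) for Col1a1 and -1.35 (-1.44 to -1.26) for Col1a2. The counting intervals of the pair in KD-1 did not overlap, and in KD-2, at 0.79 (0.72 to 0.86) and 0.71 (0.65 to 0.77), they did.

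Col11a1, a chain of the type XI collagen found with type II in cartilage fibrils, had 2996 reads in control against 1259 with KD-1 and 5918 with KD-2. Its log2 ratio of -1.48 (-1.58 to -1.38) in KD-1 was the lowest, and that of 2.35 (2.27 to 2.44) between KD-2 and KD-1 the highest, of the collagen genes. Of the remaining cartilage chains, Col2a1 had 224, 174 and 525 reads and Col11a2 had 62, 47 and 133, both lowest in KD-1 and highest in KD-2. Col2a1 was at 0.335, 0.221 and 0.813 RPKM and Col11a2 at 0.125, 0.0802 and 0.277 RPKM in control, KD-1 and KD-2, far below Col3a1. Col24a1, a minor fibrillar collagen, had 178, 135 and 361 reads, with a log2 ratio of -0.63 with KD-1 and 0.91 with KD-2.

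**Figure D2:**
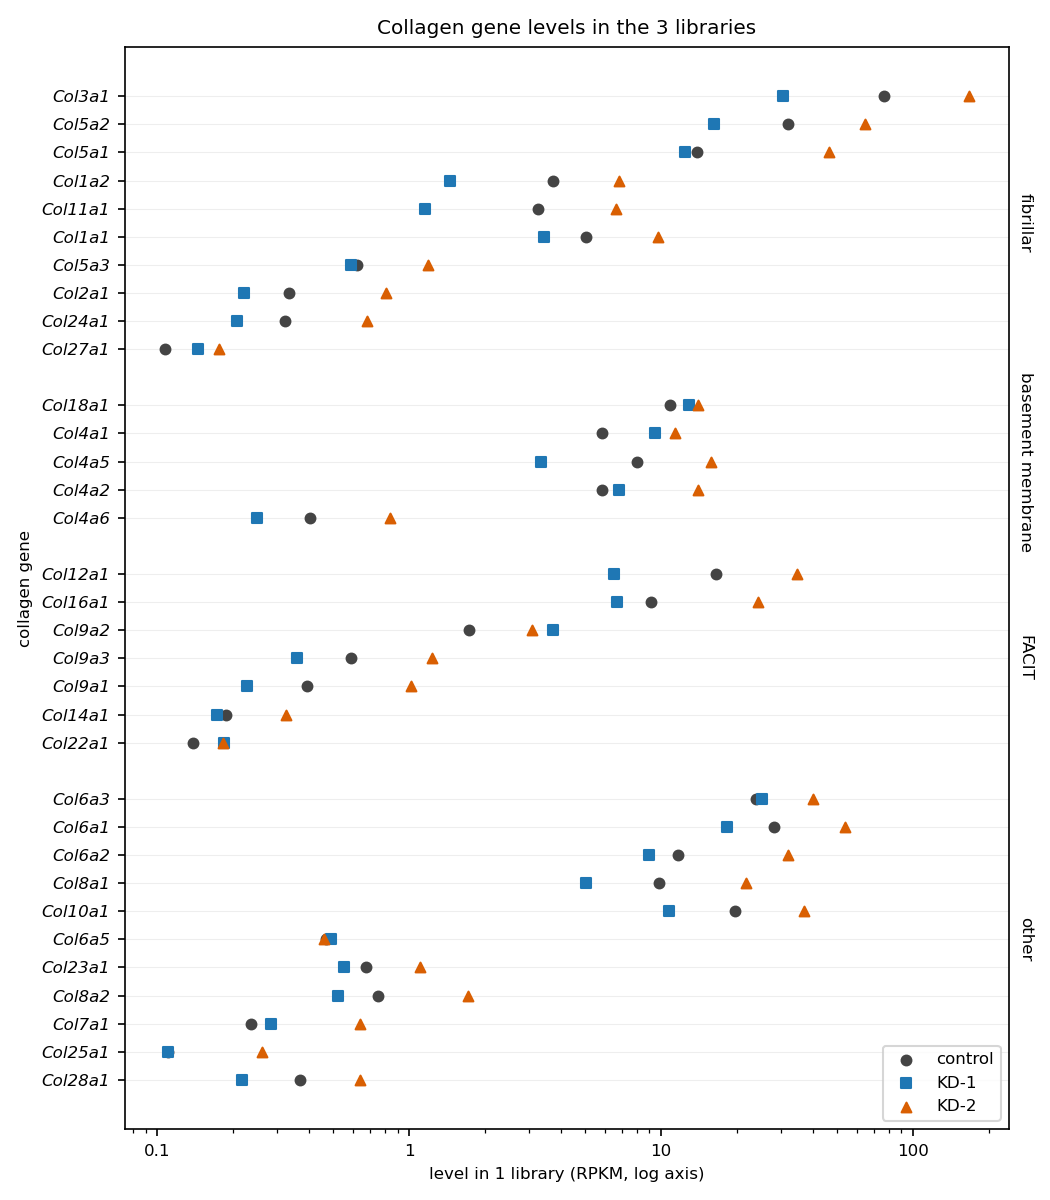
The level of the 33 collagen genes that averaged 100 reads or more is plotted in RPKM on a log axis for control (circles), KD-1 (squares) and KD-2 (triangles), by class and in order of mean reads. Col3a1 is the furthest right in each library, at 76.9, 30.5 and 166 RPKM, and genes such as Col4a1, Col9a2 and Col18a1 have their control point on the left.

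The basement membrane collagens lay on both sides of control in KD-1. By scaled reads 4 of 8 were lowest in KD-1 and highest in KD-2, as were 19.9% of all tested genes. Of 8 members 2 were lower and 1 was higher in KD-1, where 5.62% and 8.63% of all tested genes were. The count of higher members in KD-1 was thus near that of genes at large. The median log2 ratio in KD-1 was 0.01. This median was -0.0106 with TMM scaling, -0.0588 with DESeq2's size factors and -0.00257 with library totals. It was 0.24 over the members that averaged 100 reads or more. Of the 8 members 5 were higher in KD-2, where 17.1% of all tested genes were, the median being 0.81. Their level was 217 RPM in control against 232 with KD-1 and 391 with KD-2, and their share of the collagen reads was 8.59%, 14.8% and 7.36%.

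Col4a1 and Col4a2 encode the chains of the most common type IV collagen and face away from each other at chr8:11198423-11449287, where their ends share 22 bases. Col4a1 had 3155 reads in control against 6021 with KD-1 and 5936 with KD-2, and Col4a2 had 2793, 3860 and 6509. Both were thus lowest in control, and KD-1 was close to KD-2 for Col4a1 but close to control for Col4a2. The log2 ratio in KD-1 was 0.70 (0.64 to 0.77) for Col4a1 and 0.24 (0.17 to 0.31) for Col4a2, and in KD-2 it was 0.80 (0.74 to 0.87) and 1.11 (1.05 to 1.18).

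Col4a5 and Col4a6, chains of kidney, lung and smooth muscle basement membranes, also face away from each other, on chromosome X with 1308 bases between them. Col4a5 had 3906 reads in control against 1908 with KD-1 and 7407 with KD-2, and Col4a6 had 234, 169 and 468. This pair had the arrangement of the fibrillar genes, with a log2 ratio in KD-1 of -1.26 (-1.34 to -1.18) and -0.70 (-0.99 to -0.41), and in KD-2 of 0.82 (0.76 to 0.87) and 0.89 (0.66 to 1.13). Col4a3 and Col4a4, known from the filter of the kidney, start 71 bases apart on chromosome 1 and were near the limit of detection, with 19, 16 and 28 reads and 14, 18 and 27 reads. Every counting interval of this last pair against control included 0, although Col4a4, at 0.82 in KD-2, was counted as higher.

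Col18a1, whose product carries the endostatin fragment, had 5491 reads in control against 7696 with KD-1 and 6855 with KD-2. With log2 ratios of 0.26 (0.21 to 0.31) and 0.21 (0.16 to 0.26) it stayed within 1.5-fold in both knockdowns, and it was the gene with the most reads to do so. Col15a1, a relative of Col18a1, had 51, 55 and 75 reads and also stayed within 1.5-fold, with intervals that included 0.

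The FACIT collagens held 12.9% of the collagen reads in control against 10.3% with KD-1 and 13.5% with KD-2. Of 8 tested members 3 were lower and 1 was higher in KD-1, where 5.62% and 8.63% of all tested genes were. The count of higher members in KD-1 was thus near that of genes at large. In KD-2 7 were higher, where 17.1% of all tested genes were. The median log2 ratio of the members was -0.29 with KD-1 and 0.88 with KD-2. Col12a1, a fibril-bound collagen of tendon, muscle and fascia at chr9:79598991-79718831, had 18239 reads in control against 8426 with KD-1 and 36759 with KD-2. Its log2 ratio was -1.34 (-1.38 to -1.31) with KD-1 and 0.90 (0.88 to 0.93) with KD-2, close to the values of Col3a1. Col16a1, made by fibroblasts and smooth muscle, had 4440, 3857 and 11457 reads, with -0.43 (-0.49 to -0.37) in KD-1, within 1.5-fold, and 1.26 (1.21 to 1.31) in KD-2.

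The genes of type IX collagen, which coats the type II fibrils of cartilage, differed among themselves. Col9a2 had 386 reads in control against 984 with KD-1 and 665 with KD-2, with a log2 ratio of 1.12 (0.95 to 1.30) with KD-1 and 0.68 (0.49 to 0.86) with KD-2. Col9a1 had 144, 98 and 361 reads and Col9a3 had 164, 118 and 332 reads, so that both were lowest in KD-1, where Col9a2 was highest. In KD-1 the log2 ratio was -0.78 (-1.17 to -0.40) for Col9a1 and -0.70 (-1.06 to -0.35) for Col9a3. The Col9a3 exons share 234 bases with Tcfl5 on the opposite strand, and which strand was counted is not given in the sources used here.

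Col14a1, a fibril-bound collagen of skin and tendon, had 95, 103 and 159 reads, and Col20a1 had 35, 37 and 69. Both were higher in KD-2, with log2 ratios of 0.63 and 0.86, and in KD-1 their intervals included 0. Col22a1, a collagen of tissue junctions, had 92, 144 and 117 reads and stayed within 1.5-fold in both knockdowns.

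The other collagens held 26.4% of the collagen reads in control against 34.9% with KD-1 and 24.5% with KD-2. Of 16 members 4 were lower and 3 were higher in KD-1, where 5.62% and 8.63% of all tested genes were. In KD-2 9 were higher, where 17.1% of all tested genes were. The median log2 ratio of the members was -0.29 with KD-1 and 0.61 with KD-2. Type VI collagen, which forms beaded filaments around cells, provided most of the reads of this class. Col6a3, its longest chain, had 20641 reads in control against 25574 with KD-1 and 33490 with KD-2, with a log2 ratio of 0.08 (0.05 to 0.11) with KD-1 and 0.59 (0.57 to 0.62) with KD-2. Its share of the collagen reads, not scaled by length, was 11.3% in control against 19.1% with KD-1 and 9.03% with KD-2.

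The partners of Col6a3, the neighbouring genes Col6a1 and Col6a2 on chromosome 10, were both lowest in KD-1. Col6a1 had 8909, 6814 and 16432 reads and Col6a2 had 7064, 6388 and 18600 in control, KD-1 and KD-2. The log2 ratio in KD-1 was -0.62 (-0.66 to -0.57) for Col6a1 and -0.37 (-0.42 to -0.32) for Col6a2, and in KD-2 it was 0.78 (0.74 to 0.81) and 1.29 (1.25 to 1.33). The remaining type VI genes, Col6a4, Col6a5 and Col6a6, lie in a row on chromosome 9. Col6a5 had 320, 393 and 302 reads and was the only collagen gene in the table to be lowest in KD-2 and highest in KD-1, with intervals that included 0 against control. Col6a4 had 51, 48 and 46 reads, and Col6a6 had 13, 30 and 20, with a log2 ratio in KD-1 of 0.95 (-0.00451 to 2.04).

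Col8a1, a network-forming collagen of vessel walls and of the cornea, had 5572 reads in control against 3353 with KD-1 and 11880 with KD-2, with a log2 ratio of -0.96 (-1.02 to -0.90) with KD-1 and 0.99 (0.94 to 1.03) with KD-2. Its partner Col8a2 had 244, 199 and 537 reads, with -0.52 (-0.80 to -0.25), within 1.5-fold, and 1.03 (0.81 to 1.26). Col10a1, the collagen of hypertrophic cartilage, had 4437, 2870 and 8086 reads, or 19.6, 10.8 and 37.0 RPKM, which made it 5th among the collagen genes of the control library by RPKM. Its exons overlap those of Nt5dc1 on the opposite strand by 18 bases in this annotation.

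Col7a1, the collagen of the fibrils that anchor the epidermis, had 175 reads in control against 249 with KD-1 and 460 with KD-2, with a log2 ratio of 0.28 (-0.00449 to 0.57) with KD-1 and 1.29 (1.03 to 1.55) with KD-2. Of the collagens that span the cell membrane, Col25a1 had 103, 122 and 236 reads and was higher in KD-2, and Col23a1 had 280, 271 and 442 and stayed within 1.5-fold. Col13a1, a membrane collagen of the neuromuscular junction, had 43 reads in control against 122 with KD-1 and 54 with KD-2. It had the largest log2 ratio of the collagen genes in KD-1, 1.27 (0.76 to 1.81), and its KD-2 interval, -0.38 to 0.83, included 0. Col26a1 had 52, 108 and 59 reads and was also high in KD-1 alone, Col28a1 had 131, 91 and 219, and Col17a1, of the hemidesmosome, had 49, 43 and 62 with intervals that included 0.

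**Figure D3:**
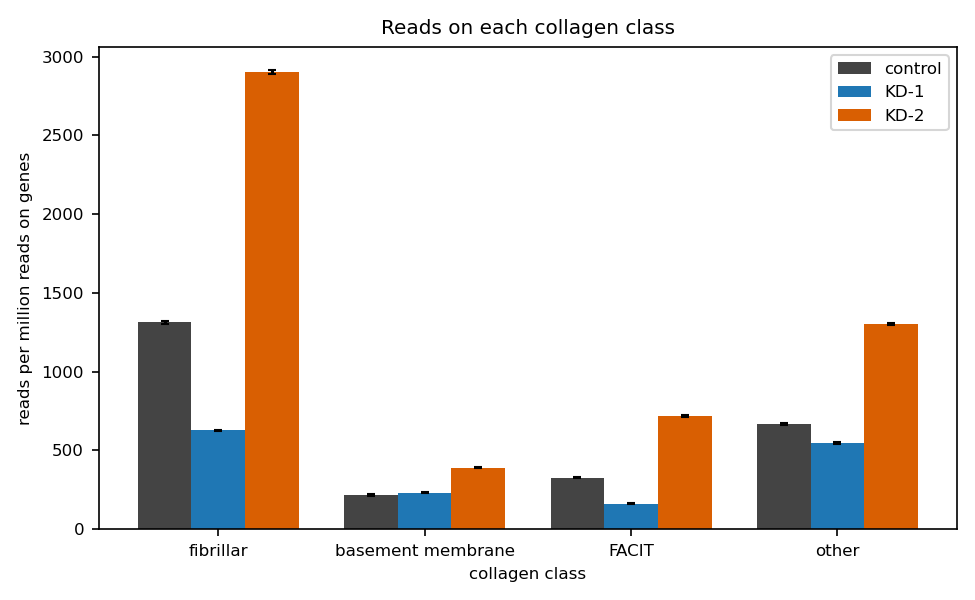
Bars give the reads on each collagen class (RPM) in control, KD-1 and KD-2, from 0, and the error bars give 95% Poisson intervals for counting error. KD-2 is the highest library in every class, and KD-1 is the lowest in every class but basement membrane, where control, at 217 RPM, is below KD-1, at 232.

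Chains that join in the same molecule were compared within a library as a ratio of RPKM, which needs no scaling between libraries. The Col1a1 to Col1a2 ratio was 1.35 (1.28 to 1.42) in control, 2.35 (2.20 to 2.52) with KD-1 and 1.43 (1.37 to 1.48) with KD-2, so KD-1 stood apart. The Col4a1 to Col4a2 ratio was 1.00 (0.952 to 1.05) in control, 1.38 (1.33 to 1.44) with KD-1 and 0.809 (0.781 to 0.838) with KD-2, and the intervals of the 3 libraries did not overlap. The Col5a1 to Col5a2 ratio was 0.437 (0.426 to 0.448) in control and higher in both knockdowns, at 0.773 (0.753 to 0.794) with KD-1 and 0.722 (0.711 to 0.733) with KD-2. The Col6a1 to Col6a2 ratio was 2.40 (2.32 to 2.47) in control and lower in both, at 2.03 (1.96 to 2.10) with KD-1 and 1.68 (1.64 to 1.72) with KD-2. The intervals cover counting error only, and the spread of such ratios between cultures was not measured.

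**Figure D4:**
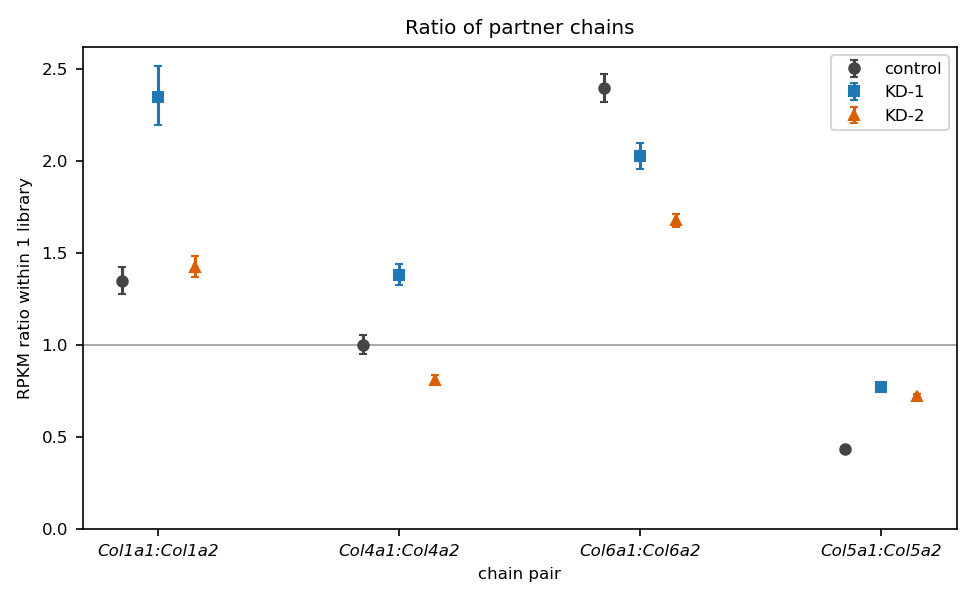
The RPKM ratio of partner chains within each library is plotted for 4 pairs, with 95% counting intervals and a line at 1. Col1a1:Col1a2 is highest in KD-1 at 2.35, and Col5a1:Col5a2 is lowest in control at 0.437.

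Promoter windows of 6 genes are shown to set the sequence beside the values. A start site was listed by RefSeq (GRCm38.p6) for 35 of the 44 collagen genes, with 38 windows of the 250 bases before a start. Shown are the windows of the genes more than 2-fold lower in KD-1 that had one, and of those higher in both knockdowns. They are written from 5′ to 3′ along the gene, and capitals mark 4 motifs searched on both strands of the gene. These were CCAAT, known from many promoters, GGGCGG, the GC box, TATAAA, the core of a TATA box, and TGANTCA, the site of AP-1 factors. No matches overlap in the windows shown. Below control in KD-1 but above it in KD-2 were the following.
Col11a1 (chr3:114030290-114030539, + strand): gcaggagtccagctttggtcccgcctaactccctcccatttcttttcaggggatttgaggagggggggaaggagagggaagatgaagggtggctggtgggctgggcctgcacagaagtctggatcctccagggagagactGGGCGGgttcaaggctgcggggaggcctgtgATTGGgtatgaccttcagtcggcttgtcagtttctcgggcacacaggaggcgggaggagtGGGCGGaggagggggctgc
Col1a2 (chr6:4505368-4505617, + strand): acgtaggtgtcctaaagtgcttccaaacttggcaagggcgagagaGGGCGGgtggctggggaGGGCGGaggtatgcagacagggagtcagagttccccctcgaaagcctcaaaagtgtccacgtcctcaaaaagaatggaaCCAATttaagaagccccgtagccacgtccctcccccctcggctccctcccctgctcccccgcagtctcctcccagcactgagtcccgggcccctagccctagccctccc
Col3a1 (chr1:45311288-45311537, + strand): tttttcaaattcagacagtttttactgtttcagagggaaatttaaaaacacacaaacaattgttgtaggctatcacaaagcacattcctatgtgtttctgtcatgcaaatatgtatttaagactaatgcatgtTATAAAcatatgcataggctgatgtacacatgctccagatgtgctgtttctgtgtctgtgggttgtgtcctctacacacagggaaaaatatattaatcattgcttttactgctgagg
Col4a5 (chrX:141475169-141475418, + strand): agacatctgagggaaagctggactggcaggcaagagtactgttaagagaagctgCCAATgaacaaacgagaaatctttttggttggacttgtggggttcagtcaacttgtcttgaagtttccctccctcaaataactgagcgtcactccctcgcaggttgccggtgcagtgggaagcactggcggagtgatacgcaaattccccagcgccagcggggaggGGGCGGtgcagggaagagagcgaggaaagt
Higher in both knockdowns were the following.
Col4a1 (chr8:11312827-11313076, - strand): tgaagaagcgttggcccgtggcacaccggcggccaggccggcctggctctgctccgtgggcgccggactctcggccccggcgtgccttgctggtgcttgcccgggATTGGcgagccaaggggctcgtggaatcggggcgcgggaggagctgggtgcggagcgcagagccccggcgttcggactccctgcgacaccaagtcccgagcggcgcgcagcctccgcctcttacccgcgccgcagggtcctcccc
Col9a2 (chr4:121039316-121039565, + strand): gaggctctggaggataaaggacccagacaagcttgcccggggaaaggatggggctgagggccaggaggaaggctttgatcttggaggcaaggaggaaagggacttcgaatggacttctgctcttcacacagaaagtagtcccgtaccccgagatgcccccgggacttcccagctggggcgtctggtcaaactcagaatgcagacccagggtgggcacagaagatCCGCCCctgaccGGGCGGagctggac

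The Col3a1 window had TATAAA from 117 bases before the start, 0 CG pairs and 35.2% G and C. The Col1a2 window had CCAAT and GGGCGG matches, as had Col11a1 and Col4a5, and was 62.0% G and C. The Col4a1 window had a CCAAT match, 31 CG pairs and 74.4% G and C, and the Col9a2 window had a pair of GGGCGG matches. Over the 38 collagen windows 57.9% held GGGCGG, beside 32.7% of all 32851 windows, and 34.2% held CCAAT, beside 33.8%. TATAAA was in 13.2%, beside 12.4%, and TGANTCA in 2.63%, beside 6.75%. The collagen windows had a median of 59.0% G and C, beside 52.4% over all windows. Of the windows shown for genes lower in KD-1, that of Col3a1 had neither CCAAT nor GGGCGG. A match is a description of the letters only.

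Collagen chains need modifying enzymes and chaperones on their way out of the cell, and 29 of 30 genes listed for this were tested. In KD-1 4 were lower and 2 higher, and in KD-2 13 were higher and 0 lower, with a median log2 ratio of -0.14 and 0.51. Over all tested genes the shares were 5.62% and 8.63% in KD-1 and 17.1% and 10.2% in KD-2, so the count of higher genes in KD-1 was near that of genes at large. Serpinh1, which encodes the collagen chaperone HSP47, had 11232 reads in control against 7215 with KD-1 and 22373 with KD-2, log2 ratios of -0.87 and 0.89. P3h4, of the complex that modifies collagen lysines, had 2243, 1174 and 4612 reads, and the isomerase gene Fkbp14 had 1133, 680 and 1836, so that all of these were lowest in KD-1 and highest in KD-2. P4hb, the β subunit of prolyl 4-hydroxylase, which also folds other proteins, had 62250, 63194 and 75178 reads and stayed within 1.5-fold. Crtap had 5305, 5841 and 7295 reads, P3h3 had 3632, 3847 and 7622, and Ppib, an isomerase, had 4202, 4813 and 6080. Of Crtap, P3h3 and Ppib, P3h3 alone passed 1.5-fold, in KD-2. By step, 1 of 10 genes listed under prolyl hydroxylation was lower in KD-1. This was P3h4, counted there although it is of the complex that modifies collagen lysines. In KD-2 4 of the 10 were higher, P4ha2, P3h2, P3h3 and again P3h4. Of 5 genes of lysyl hydroxylation and glycosylation 1 was higher in each knockdown. The most abundant of this group were the galactosyltransferase gene Colgalt1, with 7323, 9425 and 9516 reads, and the lysyl hydroxylase genes Plod2, with 4953, 4350 and 5463, Plod3, with 2916, 2683 and 4523, and Plod1, with 1871, 2337 and 3388. Plod1 passed 1.5-fold in KD-2, with a log2 ratio of 0.75, and the others stayed within it. Of 7 genes of chaperones and export 2 were lower in KD-1, while 4 were higher in KD-2, and of 7 tested genes of propeptide processing KD-1 had 1 lower and 1 higher and KD-2 had 4 higher. In the last group Tll1, a procollagen protease, had 316, 225 and 600 reads, and Pcolce, an enhancer of such proteases, had 8300, 8184 and 16802. Its relative Pcolce2 was lowest in KD-2 instead, with 10717, 10754 and 7771 reads and a log2 ratio of -0.57, within 1.5-fold. The protease genes Bmp1, with 1347, 1618 and 2785 reads, and Adamts2, with 710, 765 and 1372, were both higher in KD-2. Of the chaperone and export genes, Fkbp10 had 1460, 1256 and 3417 reads and was higher in KD-2, while Mia3, with 6041, 6616 and 7059, and Sec24d, with 2326, 2488 and 3483, stayed within 1.5-fold.

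Of 8 tested collagen receptor genes 2 were lower in KD-1, while 2 were higher in KD-2, where 5.62% and 17.1% of all tested genes were, the median log2 ratio being -0.43 and 0.52. Itga11, the α11 integrin that binds fibrillar collagen, had 134 reads in control against 100 with KD-1 and 336 with KD-2, with -0.65 and 1.22. Mrc2, which takes up collagen, had 3554, 3114 and 9651 reads, with -0.42 in KD-1, within 1.5-fold, and 1.33 in KD-2. Itgb1, the β1 integrin shared by the collagen integrins, had 48814, 42204 and 59845 reads and stayed within 1.5-fold. The collagen receptor kinase genes Ddr2, with 5367, 4241 and 8646 reads, and Ddr1, with 239, 287 and 356, had log2 ratios of -0.57 and 0.04 in KD-1 and 0.58 and 0.47 in KD-2. Itga2, the α2 integrin, was lower in KD-1 and below control in KD-2 also, with 428, 325 and 320 reads and log2 ratios of -0.62 and -0.53.

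Markers of fibroblasts, the feeder cell type, lay on the same side of control as most collagen genes in each knockdown. Of 18 such markers, none of them a collagen, 17 were tested. All 17 were below 0 in KD-1 and above 0 in KD-2, with a median log2 ratio of -0.56 and 0.76. Such an arrangement was found in 19.9% of all tested genes. Earlier results were already known when these markers were listed. The range was -2.01 (Postn) to -0.08 (Fn1) in KD-1 and 0.32 (Mfap5) to 1.87 (Loxl1) in KD-2. Past 1.5-fold, 7 were lower in KD-1, while 12 were higher in KD-2. The corresponding shares of all tested genes were 5.62% and 17.1%. The summed level of the fibroblast markers was 3309 RPM in control against 2451 with KD-1 and 5937 with KD-2. No fibroblast marker was at 0 in any library, and Tcf21, with 3, 7 and 7 reads, was not tested. Lum, a proteoglycan of collagen fibrils, had 4339, 1871 and 8174 reads, and Vim, the filament of mesenchymal cells, had 72731, 57280 and 153267. The collagen-binding proteoglycan gene Dcn, with 1594, 1199 and 2994 reads, the growth factor receptor gene Pdgfrb, with 2558, 1688 and 5829, Prrx1, with 3865, 2485 and 7066, and Fap, with 93, 56 and 159, passed 1.5-fold downward in KD-1 and upward in KD-2. S100a4 had the highest RPKM of these markers, with 44210, 32429 and 60786 reads, and was lower in KD-1 and within 1.5-fold in KD-2. The part of the fibroblast share of each culture in the collagen values was not tested, and in bulk RNA fewer cells of a type and less RNA per cell cannot be told apart.

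In KD-1 29 of 43 collagen genes lay within the range of the fibroblast markers, as did 35.1% of all tested genes, and 14 lay above it. Above it were Col4a1, Col4a2, Col4a4, Col6a3, Col6a5, Col6a6, Col7a1, Col9a2, Col13a1, Col18a1, Col22a1, Col25a1, Col26a1 and Col27a1. In KD-2 36 of 43 lay within the range, as did 28.1% of all tested genes, and the 7 below it were Col6a4, Col6a5, Col13a1, Col17a1, Col18a1, Col22a1 and Col26a1. Outside the range in both libraries were Col6a5, Col13a1, Col18a1, Col22a1 and Col26a1. The ES cell markers had a median of 0.08 with KD-1 and -0.30 with KD-2, with a summed level of 4715 RPM in control against 5100 with KD-1 and 3846 with KD-2. Of these 10 markers 3 were lower in KD-2, namely Zfp42 at -0.70, Dppa4 at -0.67 and Tdgf1 at -0.61, where 10.2% of all tested genes were. A single marker, Utf1, was higher in both knockdowns, where 3.64% of all tested genes were. Dppa5a had 74575, 111186 and 54008 reads, Tdgf1 had 48537, 52418 and 34353, Dppa4 had 9028, 10677 and 6097, and Utf1 had 127, 240 and 308. The markers of primitive and parietal endoderm, cells that make type IV collagen in the early embryo, had a median of 0.09 and 0.47. Their summed level was 528, 500 and 775 RPM. Of 10 tested, 4 were higher in KD-2, namely Gata6, Dab2, Sparc and Pdgfra, where 17.1% of all tested genes were. In KD-1 1 was higher, where 8.63% were, a count near that of genes at large. This was Sox17, with 15, 31 and 20 reads and an interval of -0.11 to 1.81 in KD-1. In both knockdowns 0 were lower, where 5.62% of all tested genes were in KD-1 and 10.2% in KD-2. Pdgfra is also in the fibroblast list. By RPKM Sparc, a matrix protein that fibroblasts also make, came first with 8919, 8110 and 15082 reads, before Lamb1 with 13577, 17836 and 18877, Pdgfra with 6423, 6255 and 11095 and Lama1 with 7075, 8319 and 5600. Of the factors that define this lineage, Gata6 had 46, 63 and 105 reads, a log2 ratio of 1.08 in KD-2, Sox7 had 97, 148 and 91, and Gata4 and Sox17 had at most 31 in any library.

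**Figure D5:**
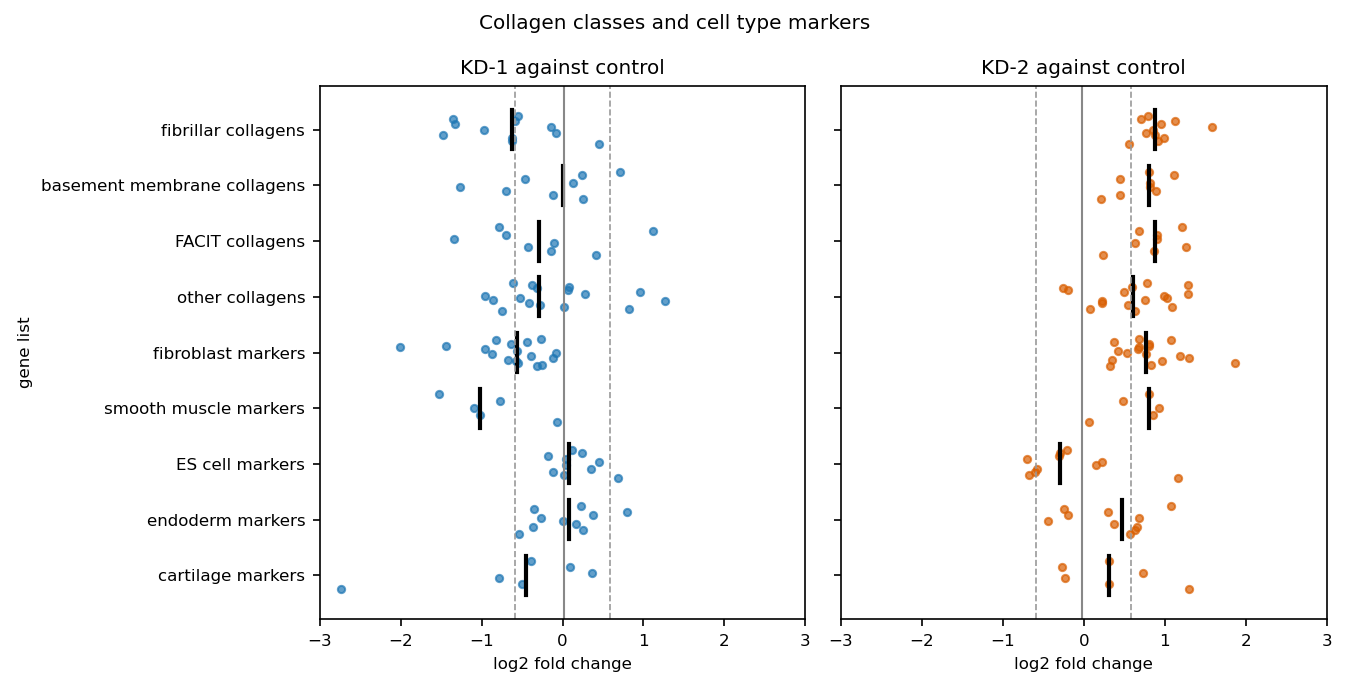
Each point is the log2 ratio of a tested gene in KD-1 (left) or KD-2 (right) against control, for the collagen classes and the marker lists; black bars are medians, the grey line is the median of all tested genes and dashed lines mark 1.5-fold. The fibrillar collagens and the fibroblast markers lie mostly left of 0 in KD-1 and right of 0 in KD-2, and the basement membrane collagens are on both sides in KD-1.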

How the data were processed

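RNA-Seq was performed once for each of the 3 conditions. The authors deposited counts of reads per gene, not normalized, for 24421 genes and 5 summary lines. The submitters' processing notes name Trim Galore 0.4.1, TopHat2 2.1.1, HTSeq and mm10/GRCm38, while the study's methods name featureCounts as the counter. The strand counted is not given in the sources used here. The summary lines (reads on no gene or on several, 23.5%, 25.6% and 23.0% of the counted reads in control, KD-1 and KD-2) stayed out of library sizes and tests. No libraries were identical.

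Counts were scaled by the upper quartile with edgeR 4.0.16 in R 4.3.3, and log2 ratios were computed with a pseudocount of 0.5 reads for the 16670 genes that averaged 10 reads or more. Genes past 1.5-fold were counted, with exact binomial 95% intervals of the read ratio. Both knockdown libraries were tested against control with edgeR's quasi-likelihood test and Benjamini-Hochberg adjustment, and with DESeq2 1.42.0. RPKM used the joined exon length of GENCODE M21 and the reads on genes. In that annotation 23376 genes matched by symbol and 636 by an older symbol; Col28a1, also an older name of Tmem156, was matched by its present symbol. Scripts were tested on simulated data. Python 3.11.15, pandas 2.3.3, numpy 2.4.6, scipy 1.17.1 and matplotlib 3.10.9 were used.

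The members, the gene lists (collagen synthesis, collagen receptors, and markers of fibroblasts, smooth muscle, ES cells, endoderm and cartilage), the tests and the alternatives were chosen with earlier results of these data known. Named were all collagen genes averaging 100 reads or more, those of the rest past 1.5-fold in either knockdown, and of each list or its subgroups the 4 genes highest by mean RPKM and those past 1.5-fold in both knockdowns; other genes were named after their values were seen. Alternatives were TMM, DESeq2's size factors, library totals, an upper quartile over those 16670 genes, a fold above 2, no filter, a minimum mean of 100 reads, a pseudocount of 5, counting intervals, and likelihood ratio tests at assumed dispersions of 0.01, 0.04 and 0.16. With 1 library per condition, precision covers counting error only.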

Additional observations from a re-analysis of the deposited data

How the results depend on the processing

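With 1 library per condition no setting replaces replicates, and leaving out KD-1 or KD-2 leaves the quasi-likelihood test with no residual degree of freedom, so it was not run. No paired analysis was possible because each condition has 1 library. Library totals moved the median of all tested genes by 0.16 in KD-2 against control and by 0.17 in KD-2 against KD-1, and DESeq2's size factors moved the last by 0.10. Under TMM, DESeq2's size factors, library totals and the other upper quartile, KD-1 had 15 to 18 collagen genes lower and 5 higher than control, KD-2 had 33 to 36 higher and 0 lower, and between KD-2 and KD-1 32 to 33 were higher. Over all tested genes these shares were 5.39% to 6.87% lower and 7.29% to 8.98% higher in KD-1, 18.5% to 23.6% higher and 4.92% to 8.49% lower in KD-2, and 17.6% to 21.2% higher between KD-2 and KD-1. With library totals 23.6% of all tested genes were higher and 4.92% lower in KD-2 than in control, and 21.2% higher and 7.37% lower than in KD-1. Over all 13 settings, the reported one included, no collagen gene was lower in KD-2 than in control. No member past 1.5-fold changed sign under the 4 scalings or a pseudocount of 5, and Col2a1 and Col11a2 in KD-1, and Col26a1 and Col4a4 in KD-2 against KD-1, came within 1.5-fold in at least 1 of them. The reverse held for Col1a1 and Col8a2 in KD-1, for Col4a3, Col6a6, Col15a1, Col23a1 and Col27a1 in KD-2, and for Col6a3 and Col15a1 in KD-2 against KD-1, which passed 1.5-fold in at least 1.

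With a fold above 2, KD-1 had 5 genes lower and 2 higher, KD-2 had 9 higher, and 1 was lower in KD-2 than in KD-1, where 1.53%, 3.09%, 5.42% and 3.14% of all tested genes were. With a minimum mean of 100 reads KD-1 had 2 higher than control, and KD-2 had 0 lower than KD-1, where 3.76% and 10.9% of all genes tested were, and with library totals KD-2 had 1 lower than KD-1. The likelihood ratio test at a dispersion of 0.01 called 8 lower and 3 higher for KD-1 against control and 1 lower for KD-2 against KD-1, where 2.61%, 2.61% and 10.1% of all tested genes were called. At 0.04 it called 0 lower and 0 higher in KD-1, 1 higher in KD-2, and 0 lower in KD-2 than in KD-1, where 21 were still higher. At 0.16 it called 0 lower and 0 higher in KD-1, 0 higher in KD-2, and 0 higher and 0 lower in KD-2 than in KD-1, and at that dispersion 0 to 1 of all tested genes were called in each direction.

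The basement membrane median in KD-1 was -0.0106 with TMM, -0.0588 with DESeq2's size factors, -0.00257 with library totals, -0.00369 with a pseudocount of 5 and 0.24 at a minimum mean of 100 reads, and that of lysyl hydroxylation and glycosylation was -0.13 at a minimum mean of 100 reads. In each 1000000 of all counted reads, summary lines included, collagen reads were 1928 in control against 1165 with KD-1 and 4091 with KD-2. Without length scaling the read ratios in control, KD-1 and KD-2 were 0.713, 1.24 and 0.753 for Col1a1 to Col1a2, 1.13, 1.56 and 0.912 for Col4a1 to Col4a2, 1.26, 1.07 and 0.883 for Col6a1 to Col6a2, and 0.387, 0.684 and 0.639 for Col5a1 to Col5a2.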

Other observations

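Genes of contractile cells were read in the same libraries, since fibroblasts that become contractile also make collagen. Of 5 tested smooth muscle markers 4 were lower in KD-1, while 3 were higher in KD-2, the median log2 ratio being -1.01 and 0.81. The corresponding shares of all tested genes were 5.62% and 17.1%. The summed level of the smooth muscle markers was 60.9 RPM in control against 24.9 with KD-1 and 115 with KD-2. Acta2, smooth muscle actin, had 3192 reads in control against 1303 with KD-1 and 6031 with KD-2, while Des, the muscle filament desmin, had 85, 95 and 96 and stayed within 1.5-fold. Tagln had 679, 466 and 1021 reads, and Cnn1, with 241, 132 and 493, and Myh11, with 209, 121 and 408, passed 1.5-fold downward in KD-1 and upward in KD-2, as Acta2 did. Myocd, with 2, 4 and 4 reads, was not tested.

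Of 6 cartilage markers 2 were lower in KD-1, while 2 were higher in KD-2, the median log2 ratio being -0.45 and 0.31. Among all tested genes 5.62% were lower in the first library, and 17.1% were higher in the second. Comp, a matrix protein of cartilage and tendon that binds collagen fibrils, had 1340 reads in control against 234 with KD-1 and 3547 with KD-2, with log2 ratios of -2.74 and 1.30. Sox9, the cartilage transcription factor, had 242, 216 and 324 reads, and Acan, the main cartilage proteoglycan, had 200, 250 and 179, and both stayed within 1.5-fold. Hapln1, a link protein, had 2170, 1792 and 2888 reads, and Matn1, a matrilin, had 111, 167 and 199. Matn3, with 103, 70 and 94 reads, was lower in KD-1 at -0.78. Unlike Comp it was also below control with KD-2, at -0.24, within 1.5-fold. Of the cartilage collagens, Col2a1, Col9a1, Col9a3 and Col11a2 were at most 1.23 RPKM in any library, Col9a2 reached 3.73 RPKM in KD-1, and Col10a1 and Col11a1 reached 37.0 and 6.65 RPKM in KD-2.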
